A study of Mus musculus with 4 samples.

Results

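Glycolysis and the response to low oxygen were followed here through 35 genes in MC38 tumours of mice given vanoxerine or saline. The genes were taken by name from a list of roles in glucose use and hypoxia, and all 35 were found among the 54115 genes of the deposited transcript tables. They comprise 4 glucose and lactate carriers, 15 glycolytic enzymes, 3 regulators of glycolytic flux, 11 targets of hypoxia-inducible factor (HIF) outside glycolysis, and the alpha subunit genes Hif1a and Epas1. MC38 is a mouse colon adenocarcinoma cell line, and the primary tumours arose from injected cells. The vanoxerine group had 2 libraries from tumours of mice given 25 mg/kg of this dopamine transporter inhibitor by intraperitoneal injection on 10 days in a row. The saline group had 2 libraries after 10 daily intraperitoneal injections of the vehicle. The mouse strain, sex and age are not given in the labels, nor do they say that each library is a different animal, so every p-value here compares 2 libraries with 2 others, whose spread could be technical only.

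Glycolysis splits glucose into pyruvate, and lactate dehydrogenase turns pyruvate into lactate that monocarboxylate carriers move across the membrane. HIF is a transcription factor made of an alpha and a beta subunit. When oxygen is plentiful, prolyl hydroxylases mark the alpha subunit for destruction. When oxygen is scarce, the alpha subunit persists and the factor binds short sites with the core ACGTG or GCGTG. Its targets include most glycolytic genes and also genes of mitochondrial turnover, pH control, collagen modification and its own feedback. Because the alpha subunits are controlled mainly as proteins, the transcripts of Hif1a and Epas1 do not measure HIF activity.

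The libraries held 67289273 to 75748162 estimated reads, and 99.56% to 99.63% of them fell in transcripts with a gene. Between the libraries of a group, the median absolute log2 ratio was 0.047 for vanoxerine and 0.10 for saline. The tumours were sequenced whole, so host cells contribute to every value, and fewer cells of a type cannot be told apart from less RNA per cell. The epithelial and colon markers summed to 14.8 and 15.3 TPM (transcript abundance scaled to length and library total) in vanoxerine tumours and to 7.36 and 7.56 TPM in saline tumours. Cdx2, which defines the intestinal epithelium, was at 0 in all libraries, so the defining epithelial transcripts of the labelled colon adenocarcinoma were low or absent.

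In vanoxerine tumours, the HIF targets outside glycolysis were lower as a group. Of these 11 genes, 10 fell and none rose, where 15.9% of all genes tested were lower and 21.0% higher. The median log2 fold change of the 11 was -0.58, where that of all genes tested was -0.01. Ankrd37, P4ha2 and Ndrg1 were among the 10 that fell, and the glucose carrier gene Slc2a1 fell with them. The glycolytic enzymes moved less, with 8 of 15 lower and 1 higher, beside the same 15.9% and 21.0%. Their median was -0.17 without Tpi1, which could not be measured here. The flux regulators Pfkfb3 and Pfkfb4 rose, as did Hif1a, Epas1, Slc2a3 and Hk1.

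Calls rest on edgeR's quasi-likelihood test, at an adjusted p under 0.05 by Benjamini-Hochberg over 18758 genes. Of all genes tested, 36.9% were called, with 21.0% higher and 15.9% lower in vanoxerine tumours. Beside these shares, 6 of the 35 genes were higher and 20 were lower. Without vanoxerine replicate 1 or 2, fewer of the 35 genes were called, and so were fewer of all genes tested. The spread in those fits came from the saline libraries alone, which holds for each call given below as lost without a vanoxerine library. The median log2 fold change of the HIF targets outside glycolysis was -0.58 without vanoxerine replicate 1 and -0.56 without replicate 2. That of the enzymes, leaving out Tpi1, was -0.17 and -0.16. On the scale of log2(TPM + 1), where levels are divided by transcript length, 8 of the 35 were higher and 6 were lower, beside 21.8% and 4.64% of all genes tested. With a transcript length offset in the count model, 4 were higher and 13 were lower, beside 13.9% and 9.09%. The counts thus depend on the scale. The same direction and call were found under each of 17 alternatives for 8 genes, of which Slc2a1, Car9, Ndrg1, Ankrd37, P4ha2 and Higd1a were lower and Pfkfb3 and Hif1a were higher. Among the alternatives, an adjusted p under 0.1 is the same fit at a looser threshold, so no call could be lost there. Adding the reads of named gene copies left the counts of these 8 genes as they were.

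**Figure D1:**
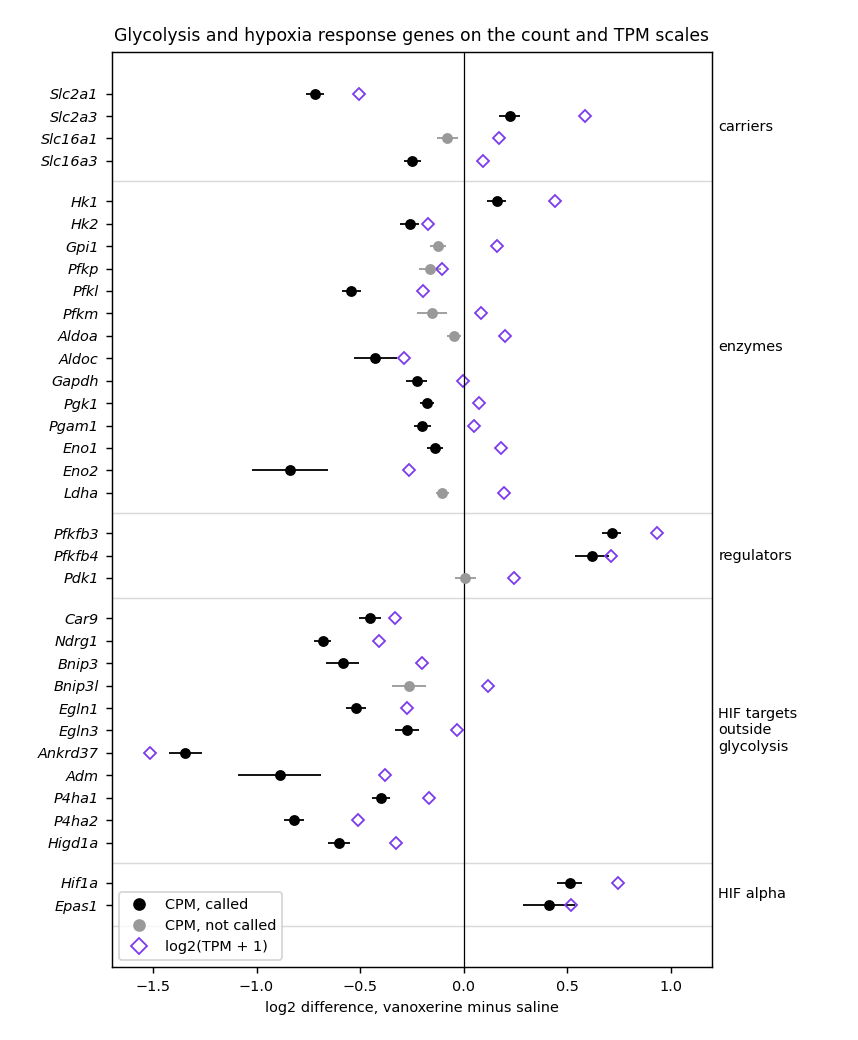
Log2 difference of 34 of the 35 genes (Tpi1 is left out), vanoxerine minus saline, on the x axis. Circles give the fitted fold change of read counts with its standard error (black where called, grey where not), and open diamonds give the log2(TPM + 1) difference. The circles of all 11 HIF targets outside glycolysis lie left of 0, from -1.34 to -0.26, and 10 of their diamonds do, while the diamond of each of the 14 enzymes lies right of its circle.

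Glucose enters tumour cells through the carriers encoded by Slc2a1 (GLUT1) and Slc2a3 (GLUT3). Slc2a1 (chr4:119108711-119137983, forward strand, GRCm38) stood at 217 and 217 CPM (read count scaled to library size) in vanoxerine tumours, against 362 and 353 CPM in saline tumours. The groups did not overlap, and Slc2a1 fell by 0.72 ± 0.042 (standard error, SE) on the log2 scale, which is 1.64-fold lower (adjusted p = 1.13e-04). Slc2a3 went the other way, with 67.5 and 66.8 CPM in vanoxerine tumours and 56.2 and 59.0 CPM in saline tumours (log2 fold change 0.22 ± 0.052, adjusted p = 0.0197). Its call was lost without vanoxerine replicate 1 (0.23, adjusted p = 0.193) or 2 (0.24, adjusted p = 0.195). Counted per length, Slc2a3 made up 16.2% and 17.0% of the TPM of both genes together in vanoxerine tumours, against 7.88% and 8.71% in saline tumours. The carrier pair thus held less Slc2a1 and more Slc2a3 transcript in both vanoxerine libraries. Most Slc2a1 TPM lay in Slc2a1-204, labelled as a transcript for nonsense-mediated decay and not as coding. It held 67.9% and 64.4% in vanoxerine tumours and 70.7% and 68.5% in saline tumours. The main coding transcript, Slc2a1-201, had 25.3 and 28.6 TPM in vanoxerine tumours and 32.0 and 34.0 TPM in saline tumours.

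Lactate leaves cells mainly through the carrier encoded by Slc16a3 (MCT4), while that of Slc16a1 (MCT1) carries it in either direction. Slc16a3 had 383 and 380.2 CPM in vanoxerine tumours and 462.5 and 444 CPM in saline tumours, a log2 fold change of -0.25 ± 0.042 (adjusted p = 0.00622). On the log2(TPM + 1) scale its difference was 0.09, so its direction depends on the scale, and the call was lost without vanoxerine replicate 1 (adjusted p = 0.113) or 2 (adjusted p = 0.115). Slc16a1 was not called, at 159 and 160.5 CPM in vanoxerine tumours and 174.5 and 163 CPM in saline tumours.

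Hexokinases trap glucose in the cell as glucose 6-phosphate. Hk2, the inducible form common in tumours, had 118 and 115 CPM in vanoxerine tumours and 142 and 137 CPM in saline tumours, and fell by 0.26 ± 0.048 on the log2 scale (adjusted p = 0.00815). Hk1, the widely expressed form, had 133 and 138 CPM in vanoxerine tumours and 122 and 120.2 CPM in saline tumours, and rose by 0.16 ± 0.047 (adjusted p = 0.0435). In log2(TPM + 1), Hk1 differed by 0.44 (limma adjusted p = 0.0156), and Hk2 by -0.17 (limma adjusted p = 0.358) with groups that overlapped. Both calls on counts were lost without either vanoxerine library, where the adjusted p was 0.114 and 0.169 for Hk2 and 0.218 and 0.383 for Hk1. The third hexokinase gene, Hk3, is known from myeloid cells and is not among the 35. It rose by 1.77 ± 0.048 on the log2 scale (adjusted p = 1.10e-05), with 236 and 242 CPM in vanoxerine tumours and 68.7 and 71.2 CPM in saline tumours. By TPM, Hk3 held 49.2% and 52.8% of the transcripts of the 3 hexokinase genes in vanoxerine tumours, against 20.2% and 22.7% in saline tumours. Hk2 held 28.5% and 24.0% in vanoxerine tumours, against 52.0% and 48.7% in saline tumours. The hexokinase gene with the largest share thus differed between the groups. The share of Hk1 was also lower, at 22.2% and 23.2% in vanoxerine tumours and 27.8% and 28.6% in saline tumours. A processed transcript not labelled as coding held 59.6% and 52.5% of the Hk2 TPM in vanoxerine tumours and 63.3% and 59.3% in saline tumours. The main coding transcript of Hk2 had 18.7 and 18.4 TPM in vanoxerine tumours and 18.8 and 17.9 TPM in saline tumours. In saline tumours this was below the 27.45 and 26.54 TPM of Hk1, so the lead of Hk2 there rested on the processed transcript. The summed hexokinase level was 163.5 and 162 TPM in vanoxerine tumours, against 98.6 and 92.9 TPM in saline tumours.

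**Figure D2:**
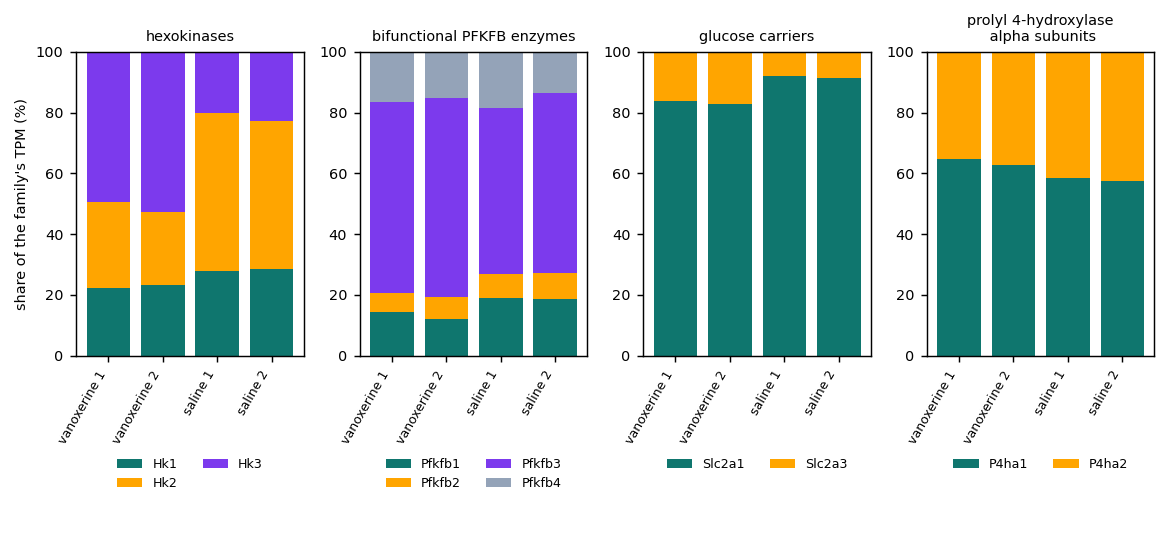
Share of summed TPM (y axis, percent) held by each gene of 4 families in each library (x axis). Hk3 fills 49.2% and 52.8% of the hexokinase bar in the vanoxerine libraries and 20.2% and 22.7% in the saline libraries, and Slc2a3 and P4ha1 also take larger shares in the vanoxerine libraries.

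Phosphofructokinase catalyses the committed step of glycolysis, and its liver-type gene Pfkl showed the largest fall among the called enzymes of at least 10 CPM. Pfkl had 210.0 and 213 CPM in vanoxerine tumours, against 302 and 315 CPM in saline tumours (log2 fold change -0.54 ± 0.044, adjusted p = 3.83e-04). It kept its call without any 1 library, but on the log2(TPM + 1) scale its difference was -0.20 (limma adjusted p = 0.131). The platelet-type gene Pfkp had 298 and 297 CPM in vanoxerine tumours and 320.1 and 346 CPM in saline tumours and missed the threshold (adjusted p = 0.0531). Pfkp was called lower under 10 of 17 alternatives, among them DESeq2 (adjusted p = 0.0201) and the same fit at an adjusted p under 0.1. The muscle-type gene Pfkm was low, at 24.1 and 25.3 CPM in vanoxerine tumours and 27.1 and 27.9 CPM in saline tumours, and was not called (adjusted p = 0.159). Pfkp and Pfkm overlap Pitrm1 and Senp1 on the opposite strand, which held 29.0% and 190.0% as many reads, and whether reads were counted by strand is not stated in the labels. By TPM, the shares of Pfkl and Pfkp within the phosphofructokinase family overlapped between the groups.

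Upstream of the aldolase step, the glucose 6-phosphate isomerase gene Gpi1 had 671 and 680.4 CPM in vanoxerine tumours and 723 and 748 CPM in saline tumours and missed the threshold (adjusted p = 0.0539). Gpi1 was called lower under 9 of 17 alternatives, among them DESeq2 (adjusted p = 0.0326) and the same fit at an adjusted p under 0.1. Aldoa, the main aldolase gene, had 1326 and 1324 CPM in vanoxerine tumours and 1345 and 1391 CPM in saline tumours, and was not called (adjusted p = 0.36). The minor aldolase gene Aldoc had 17.8 and 18.1 CPM in vanoxerine tumours and 26.2 and 22.1 CPM in saline tumours, and fell by 0.43 ± 0.10 (adjusted p = 0.0226). Its share of the aldolase TPM was only 1.22% and 1.33% in vanoxerine tumours and 2.07% and 1.58% in saline tumours, so the aldolase pool was almost wholly Aldoa in every library. As log2(TPM + 1), Aldoc differed by -0.29 (limma adjusted p = 0.258), Aldoa by 0.20 (limma adjusted p = 0.0369) and Gpi1 by 0.16 (limma adjusted p = 0.0655). The Aldoc call was lost without vanoxerine replicate 1 (adjusted p = 0.166) or 2 (adjusted p = 0.148).

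Of the enzymes of the payoff phase, which makes ATP and pyruvate, and lactate dehydrogenase, Gapdh, Pgk1, Pgam1, Eno1 and Eno2 fell on counts and Ldha was not called. Gapdh, the dehydrogenase often used as a reference gene, had 4098 and 3894 CPM in vanoxerine tumours and 4464 and 4884 CPM in saline tumours (log2 fold change -0.23 ± 0.051, adjusted p = 0.0172). Pgk1, the kinase of the first ATP-making step, had 1559 and 1513 CPM in vanoxerine tumours and 1728 and 1740.0 CPM in saline tumours (-0.18 ± 0.034, adjusted p = 0.0101). The mutase gene Pgam1 had 844 and 828 CPM in vanoxerine tumours and 935 and 984 CPM in saline tumours (-0.20 ± 0.041, adjusted p = 0.0128). These groups did not overlap, and the differences amounted to 1.13-fold to 1.17-fold. The enolase gene Eno1 had 2171 and 2189 CPM in vanoxerine tumours and 2339 and 2458 CPM in saline tumours (-0.14 ± 0.037, adjusted p = 0.0299). Eno2, the low neuronal form of enolase, had 4.52 and 4.18 CPM in vanoxerine tumours and 6.75 and 8.80 CPM in saline tumours and fell by 0.84 ± 0.18 (adjusted p = 0.0158). In TPM the groups of Eno2 overlapped, with a log2(TPM + 1) difference of -0.27 (limma adjusted p = 0.491). Ldha, which encodes the lactate-forming dehydrogenase subunit, had 1712 and 1682 CPM in vanoxerine tumours and 1801 and 1842 CPM in saline tumours and missed the threshold (adjusted p = 0.0576). Ldha was called lower under 8 of 17 alternatives, among them limma on read counts (limma-voom adjusted p = 0.0391) and the same fit at an adjusted p under 0.1. All of the calls in the payoff group were lost without either vanoxerine library, with adjusted p from 0.0548 for Gapdh to 0.298 for Eno1. On the log2(TPM + 1) scale Gapdh differed by -0.002, Pgk1 by 0.07, Pgam1 by 0.05, Eno1 by 0.18 and Ldha by 0.20, and only Ldha of these 5 was called there (limma adjusted p = 0.0457).

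Tpi1, the triose phosphate isomerase gene, could not be measured with the annotation used here. Its transcript Tpi1-205, of 1607 bases, had 0 estimated reads in every library. A transcript of 1601 bases with no gene in the annotation held 53196 and 47967 reads in the vanoxerine libraries and 69684 and 68978 in the saline libraries, and its gene was not assigned. The authors' deposited table has a base mean for Tpi1 that is 13.9 times the mean reads found here, while for the other 34 genes the ratio was 0.98 to 1.06. In the authors' deposited table the log2 fold change of Tpi1 is -0.14 (adjusted p = 0.068), in the same orientation as its value of -1.75 for Ankrd37.

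Flux through phosphofructokinase is set by fructose 2,6-bisphosphate, which the bifunctional enzymes of the PFKFB family make and remove. Pfkfb3 (chr2:11471433-11554077, reverse strand, GRCm38), whose product strongly favours synthesis, had 145 and 150.4 CPM in vanoxerine tumours, against 90.1 and 89.9 CPM in saline tumours. Pfkfb3 rose 1.64-fold (log2 fold change 0.72 ± 0.047, adjusted p = 1.75e-04), and by 0.94 on the log2(TPM + 1) scale (limma adjusted p = 0.00707). Pfkfb4 had 22.9 and 22.4 CPM in vanoxerine tumours and 15.1 and 14.4 CPM in saline tumours, a rise of 0.62 ± 0.082 (adjusted p = 0.00234). With the transcript length offset its call was lost (0.57, adjusted p = 0.0647). A processed transcript not labelled as coding held 59.9% and 56.4% of the Pfkfb4 TPM in vanoxerine tumours and 52.1% and 61.6% in saline tumours. Its coding transcript Pfkfb4-203 overlapped between the groups in TPM, while the coding Pfkfb4-201 was higher in both vanoxerine libraries. As whole genes, neither Pfkfb3 nor Pfkfb4 had groups that overlapped, on CPM or TPM. Both are known HIF targets that moved opposite to the targets outside glycolysis. The PFKFB family total was 53.1 and 54.7 TPM in vanoxerine tumours, against 30.6 and 30.9 TPM in saline tumours. Pdk1, whose kinase closes the entry of pyruvate into the citric acid cycle and which is also a HIF target, had 88.0 and 89.6 CPM in vanoxerine tumours and 86.2 and 90.2 CPM in saline tumours. Its groups overlapped and it was not called (log2 fold change 0.01 ± 0.050, adjusted p = 0.912).

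Among the HIF targets outside glycolysis, the fall was largest for Ankrd37 (chr8:45996902-46005707, reverse strand, GRCm38), which encodes a small ankyrin repeat protein and is a common marker of hypoxia. It had 16.9 and 15.7 CPM in vanoxerine tumours, against 39.9 and 42.9 CPM in saline tumours. Both vanoxerine libraries lay far below both saline libraries, and Ankrd37 was 2.54-fold lower (log2 fold change -1.34 ± 0.081, adjusted p = 1.29e-04; -1.52 on the log2(TPM + 1) scale, limma adjusted p = 0.00795). Its coding transcript Ankrd37-201 had 16.3 and 16.6 TPM in vanoxerine tumours and 34.6 and 35.1 TPM in saline tumours. The retained-intron transcript Ankrd37-204 had 5.99 and 0 TPM in vanoxerine tumours and 36.8 and 29.6 TPM in saline tumours. Both transcripts were thus lower in each vanoxerine library. Ankrd37 overlaps the coding gene Ufsp2 on the opposite strand, which held 2926 and 2906 reads in vanoxerine tumours and 3700 and 3142 in saline tumours, 152.0% as many as Ankrd37, and without strand their shared stretch cannot be told apart.

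The collagen prolyl 4-hydroxylases, which prepare collagen chains for folding, have alpha subunits encoded by P4ha1 and P4ha2. P4ha2 (chr11:54100095-54131665, forward strand, GRCm38) had 72.1 and 75.1 CPM in vanoxerine tumours, against 131 and 128.5 CPM in saline tumours, and was 1.76-fold lower (log2 fold change -0.82 ± 0.050, adjusted p = 1.33e-04). P4ha1 had 192 and 184.5 CPM in vanoxerine tumours and 247 and 249.5 CPM in saline tumours, and fell by 0.40 ± 0.045 (adjusted p = 0.00125). On the log2(TPM + 1) scale P4ha2 was called lower (-0.51, limma adjusted p = 0.00954) and P4ha1 was not called (-0.17, limma adjusted p = 0.0799). The difference between these fold changes was not tested, and the share of P4ha2 in their summed TPM was 35.4% and 37.1% in vanoxerine tumours and 41.6% and 42.4% in saline tumours. Of all genes tested, 15.9% were lower and 21.0% higher. Of 12 fibroblast markers, 10 were also lower and 1 was higher, and their part in these values was not tested. Their summed level was 485 and 503 TPM in vanoxerine tumours and 454.5 and 446 TPM in saline tumours. Most of it was Thy1, the marker that was higher and which T cells also express. The other 11 markers summed to 114.5 and 124 TPM in vanoxerine tumours, against 217 and 189.6 TPM in saline tumours.

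The mitophagy genes Bnip3 and Bnip3l encode receptors that mark mitochondria for removal, and Higd1a encodes a small mitochondrial protein linked to respiratory chain function. Higd1a had 100.2 and 102 CPM in vanoxerine tumours, against 148 and 158 CPM in saline tumours, and fell by 0.60 ± 0.052 (adjusted p = 4.61e-04). Bnip3 had 199.9 and 197 CPM in vanoxerine tumours and 321 and 273 CPM in saline tumours, a fall of 0.58 ± 0.080 (adjusted p = 0.00269). The saline libraries of Bnip3 differed more from each other than the vanoxerine libraries did. In TPM the groups of Bnip3 overlapped, with a log2(TPM + 1) difference of -0.20 (limma adjusted p = 0.334), and with the transcript length offset its adjusted p was 0.051. Bnip3l was the only one of the 11 that missed the threshold in the edgeR fit, with 139 and 131 CPM in vanoxerine tumours and 175 and 149.6 CPM in saline tumours and an adjusted p of 0.0528. Its log2 fold change was -0.26 ± 0.083. Bnip3l was called lower under 12 of 17 alternatives, among them DESeq2 (adjusted p = 0.00492) and the same fit at an adjusted p under 0.1. Without saline replicate 1 the fold change was -0.14 (adjusted p = 0.00639). Bnip3l differed by 0.12 on the log2(TPM + 1) scale (limma adjusted p = 0.332). Mitochondrial genes took 2.79% and 2.74% of the reads in vanoxerine tumours and 3.49% and 2.59% in saline tumours, so their share overlapped between the groups.

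Egln1 and Egln3 encode oxygen-sensing prolyl hydroxylases that destabilise the HIF alpha subunits and are themselves induced by HIF. Egln1 had 89.0 and 90.6 CPM in vanoxerine tumours, against 130.5 and 127 CPM in saline tumours, and fell by 0.52 ± 0.047 (adjusted p = 5.66e-04). Egln3 had 40.1 and 42.1 CPM in vanoxerine tumours and 49.1 and 50.1 CPM in saline tumours (-0.27 ± 0.059, adjusted p = 0.0150). Neither was called on the log2(TPM + 1) scale, at -0.27 for Egln1 (limma adjusted p = 0.053) and -0.03 for Egln3 (limma adjusted p = 0.758). The Egln3 call was lost without vanoxerine replicate 1 (adjusted p = 0.227) or 2 (adjusted p = 0.127). Within the family of 3, the share of Egln1 by TPM was 48.1% and 45.4% in vanoxerine tumours, against 55.4% and 52.6% in saline tumours, while that of Egln2 was 25.6% and 29.0% in vanoxerine tumours, against 19.3% and 21.9% in saline tumours.

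The remaining targets, Car9, Ndrg1 and Adm, have separate roles. Car9 encodes carbonic anhydrase IX, which acidifies the space around hypoxic cells, and had 46.9 and 45.1 CPM in vanoxerine tumours, against 62.7 and 63.1 CPM in saline tumours (log2 fold change -0.45 ± 0.053, adjusted p = 0.00152). Ndrg1, a stress-responsive gene of differentiation, had 285 and 276 CPM in vanoxerine tumours and 445 and 454 CPM in saline tumours, and was 1.60-fold lower (-0.68 ± 0.042, adjusted p = 1.45e-04). Both were also called lower on the log2(TPM + 1) scale, by -0.33 and -0.41. Adm encodes the vessel-dilating peptide adrenomedullin and had the lowest read counts of the 35 genes, with 2.98 and 2.88 CPM in vanoxerine tumours and 4.75 and 6.11 CPM in saline tumours. It fell by 0.89 ± 0.20 (adjusted p = 0.0176). In TPM its groups overlapped, with a log2(TPM + 1) difference of -0.38 (limma adjusted p = 0.355), and the call on counts was lost without vanoxerine replicate 1 (adjusted p = 0.103) or 2 (adjusted p = 0.119).

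**Figure D3:**
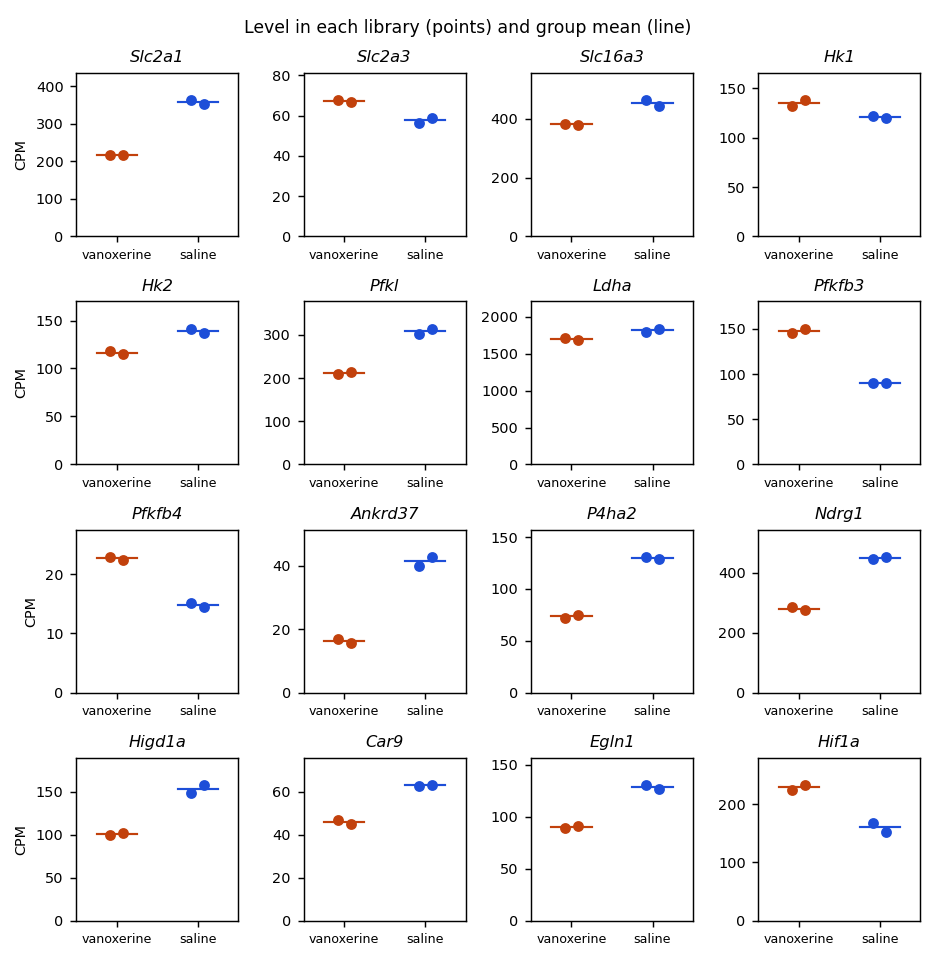
Level of 16 of the genes in each library (points, CPM on linear axes that start at 0), with the mean of each group as a line, vanoxerine on the left and saline on the right of each panel. Ankrd37 sits at 16.9 and 15.7 CPM in the vanoxerine libraries and at 39.9 and 42.9 CPM in the saline libraries, and Slc2a3, Hk1, Pfkfb3, Pfkfb4 and Hif1a are the panels with the vanoxerine points on top.

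Hif1a (chr12:73901375-73947530, forward strand, GRCm38), which encodes the broadly expressed oxygen-regulated subunit, had 225 and 233 CPM in vanoxerine tumours, against 168 and 152 CPM in saline tumours. It rose 1.43-fold (log2 fold change 0.51 ± 0.061, adjusted p = 0.00154; 0.75 on the log2(TPM + 1) scale, limma adjusted p = 0.00668). Its coding transcript Hif1a-201 held 54.0% and 56.8% of the gene's TPM in vanoxerine tumours and 54.0% and 53.7% in saline tumours. Hif1a-202 held 40.1% and 38.5% in vanoxerine tumours and 40.6% and 40.4% in saline tumours, so these shares differed little. Epas1, the HIF-2 alpha gene best known from endothelium, had 25.3 and 27.3 CPM in vanoxerine tumours and 22.1 and 17.4 CPM in saline tumours, and rose by 0.41 ± 0.13 (adjusted p = 0.0491). Epas1 differed by 0.52 on the log2(TPM + 1) scale (limma adjusted p = 0.083). The Epas1 call was lost without vanoxerine replicate 1 (0.48, adjusted p = 0.129) or 2 (0.37, adjusted p = 0.242). The alpha subunit transcripts and the HIF targets outside glycolysis therefore moved in opposite directions in the same tumours.

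The promoters of the genes with a RefSeq entry were read for the core of the HIF site. The motifs searched were ACGTG and GCGTG on both strands in the 250 bases before each RefSeq start (GRCm38.p6), and matches on opposite strands may overlap. Of the 35 genes, 31 had a promoter entry, and 28 of these (90.3%) held a match at 1 start or more, against 57.1% of 12396 genes tested that have an entry. ACGTG alone was found for 18 (58.1%), against 23.6%. The 35 genes include known HIF targets, whose sites are part of how they are known, so these shares describe the list. All 9 HIF targets outside glycolysis with an entry held a match, 7 of them ACGTG, and so did 12 of 15 enzymes, 6 of them ACGTG. Printed below, 5′ to 3′ with the matches in capitals, are the genes with the largest fall and rise among the enzymes (Eno2 and Hk1) and the largest fall among the HIF targets (Ankrd37), and then P4ha2 and Pfkfb3, which were added after their values were seen. Hk1 and Pfkfb3 have more than 1 RefSeq start.
Ankrd37, chr8:45999851-46000100, reverse strand: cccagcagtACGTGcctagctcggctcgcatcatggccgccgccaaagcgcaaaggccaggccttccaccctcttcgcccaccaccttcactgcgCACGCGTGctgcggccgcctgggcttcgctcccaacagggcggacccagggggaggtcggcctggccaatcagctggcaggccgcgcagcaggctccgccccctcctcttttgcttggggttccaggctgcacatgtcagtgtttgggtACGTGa
P4ha2, chr11:54100674-54100923, forward strand: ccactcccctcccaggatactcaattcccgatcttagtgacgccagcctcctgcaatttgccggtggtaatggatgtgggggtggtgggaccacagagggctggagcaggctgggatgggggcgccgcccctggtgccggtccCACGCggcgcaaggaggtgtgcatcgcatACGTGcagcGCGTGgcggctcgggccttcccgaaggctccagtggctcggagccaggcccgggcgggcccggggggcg
Eno2, chr6:124769674-124769923, reverse strand: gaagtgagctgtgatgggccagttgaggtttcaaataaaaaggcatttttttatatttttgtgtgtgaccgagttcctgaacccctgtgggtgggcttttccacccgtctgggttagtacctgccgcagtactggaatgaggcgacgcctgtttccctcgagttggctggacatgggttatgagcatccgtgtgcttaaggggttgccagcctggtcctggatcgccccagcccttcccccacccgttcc
Hk1, chr10:62340422-62340671, reverse strand: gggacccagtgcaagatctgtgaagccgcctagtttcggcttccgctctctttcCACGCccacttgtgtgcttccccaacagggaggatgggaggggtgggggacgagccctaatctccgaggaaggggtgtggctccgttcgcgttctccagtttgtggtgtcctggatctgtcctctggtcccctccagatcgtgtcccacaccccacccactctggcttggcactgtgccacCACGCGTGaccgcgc
Pfkfb3, chr2:11553930-11554179, reverse strand: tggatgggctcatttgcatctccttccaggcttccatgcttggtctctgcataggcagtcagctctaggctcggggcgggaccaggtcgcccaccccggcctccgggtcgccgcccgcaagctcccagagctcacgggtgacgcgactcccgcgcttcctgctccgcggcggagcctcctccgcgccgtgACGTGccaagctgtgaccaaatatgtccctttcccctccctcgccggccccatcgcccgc
Pfkfb3, chr2:11502091-11502340, reverse strand: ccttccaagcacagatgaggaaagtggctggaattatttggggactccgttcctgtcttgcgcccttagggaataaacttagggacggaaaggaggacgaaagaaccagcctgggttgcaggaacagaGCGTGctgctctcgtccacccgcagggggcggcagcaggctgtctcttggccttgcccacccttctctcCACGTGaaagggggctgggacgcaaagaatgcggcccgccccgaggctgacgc

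Ankrd37 holds 4 matches, the nearest 6 bases before the start, and P4ha2 holds 3, at 107, 78 and 69 bases before it. Eno2, which fell, has no match in this window. The risen gene Hk1 has 3 matches before the start shown and none before its other start, and Pfkfb3 has 1 and 3. Matches were thus present in genes that fell and in genes that rose. A match describes letters in a window and was not tested as a binding site.

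The enzymes and the HIF targets outside glycolysis were set against each other within each library. Library scaling factors move both lists alike and cancel in this difference, so that it cannot change with them. The mean log2 CPM of the 11 HIF targets minus that of 14 enzymes, leaving out Tpi1, was -2.16 and -2.18 in vanoxerine tumours and -1.76 and -1.80 in saline tumours. In TPM the same difference was -1.85 and -1.82 in vanoxerine tumours and -1.43 and -1.44 in saline tumours. Each vanoxerine library lay below each saline library on both scales, and with 2 libraries a group an exact two-sided permutation test cannot go below p = 0.333. The median log2 fold change of the HIF targets minus that of the enzymes was -0.415, and the smallest difference over the alternatives was -0.302, without saline replicate 1. It was -0.390 on log2(TPM + 1) and -0.391 with the transcript length offset. The median of the enzymes was -0.17, and on the log2(TPM + 1) scale it was 0.06, where the median of all genes tested was 0.13. The median of the HIF targets was -0.58, and -0.33 on the log2(TPM + 1) scale. Relative to all genes tested, the enzymes stood at -0.16 on counts and -0.06 on log2(TPM + 1), and the HIF targets at -0.57 and -0.45. Only 2 of the 35 genes lie below 10 CPM on average. Over all genes of at least 10 CPM, the median was 0.057 on counts and 0.275 on log2(TPM + 1). The medians of the enzymes and of the HIF targets lay below these values on both scales.

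By group separation, all 11 HIF targets had CPM values in both vanoxerine libraries below both saline libraries, which held for 34.9% of all genes tested. Over 34 genes without Tpi1, 27 were separated downwards in CPM and 6 upwards, where 35.8% of all genes tested were separated upwards. In TPM the downward separation held for 8 of 11 HIF targets, against 19.7% of all genes tested. Of the 14 enzymes, 13 were separated downwards in CPM, but in TPM 3 were separated downwards and 8 upwards, where 47.7% of all genes tested were separated upwards. On log2(TPM + 1), limma called 5 of 11 HIF targets lower and none higher, beside 4.64% lower and 21.8% higher of all genes tested. Of 15 enzymes it called 0 lower and 4 higher, of which Tpi1 is 1 and the others were Hk1, Aldoa and Ldha. On read counts, 1 enzyme was called higher and 8 lower, and 10 HIF targets lower, beside 21.0% higher and 15.9% lower of all genes tested. Fewer enzymes and fewer HIF targets were called lower without vanoxerine replicate 1 or 2, as were fewer of all genes tested. The median log2 fold change was then -0.17 and -0.16 for the 14 enzymes, and -0.58 and -0.56 for the HIF targets.

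**Figure D4:**
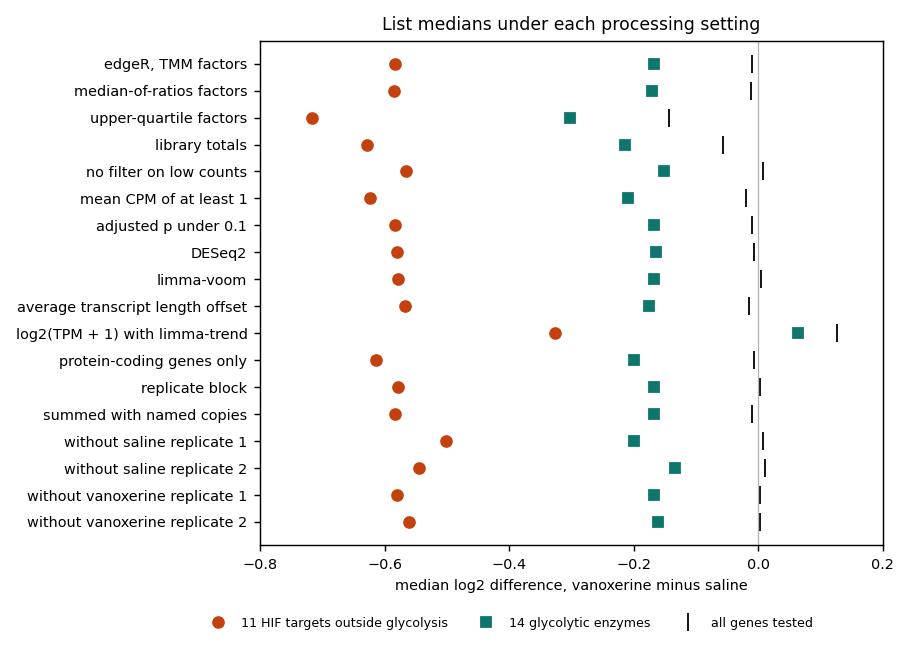
Median log2 difference, vanoxerine minus saline (x axis), of the 11 HIF targets outside glycolysis (circles), 14 glycolytic enzymes (squares) and all genes tested (bars) under each setting (y axis). The circles stay between -0.716 and -0.327, and the squares lie left of 0 except on the log2(TPM + 1) scale, at 0.063.

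Transcript length moved with the fold change across all genes. Over 9871 genes of at least 10 CPM on average, the median log2 fold change was -0.20 for transcripts of up to 1000 bases and 0.26 for those over 3000 bases, with 0.12 between 2000 and 3000 bases. Transcripts with an effective length of up to 400 bases took 41.3% and 41.8% of the TPM in vanoxerine tumours, against 49.7% and 50.6% in saline tumours. Short transcripts thus lay lower and long ones higher in general. The log2(TPM + 1) difference followed length as well, with medians of 0.01 for transcripts of up to 1000 bases, 0.35 between 2000 and 3000 bases and 0.44 over 3000 bases, so that scale does not remove the trend. Among the 35 genes Ankrd37 (522 bases), Higd1a (320 bases) and Gapdh (651 bases) are short, while Pfkfb3 (3962 bases), Hif1a (3464 bases) and Hk1 (3428 bases) are long. Set against the median of genes of like length, which was chosen after the data were seen and has no test, all 11 HIF targets stayed below 0, with a median of -0.52 and a range of -1.14 to -0.06. Egln1 (-0.78), Ndrg1 (-0.81), P4ha2 (-0.86) and Slc2a1 (-0.84) lay further below the genes of their length than below 0. Of 14 enzymes, 13 were below 0 with a median of -0.23, while Gapdh (-0.02) and Aldoa (0.002) stood at the level of genes of like length. Pfkfb3 (0.46), Pfkfb4 (0.50) and Hif1a (0.25) stayed above 0, whereas Hk1 (-0.10) and Slc2a3 (-0.04) turned below it. The part of length in these results was not tested.

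**Figure D5:**
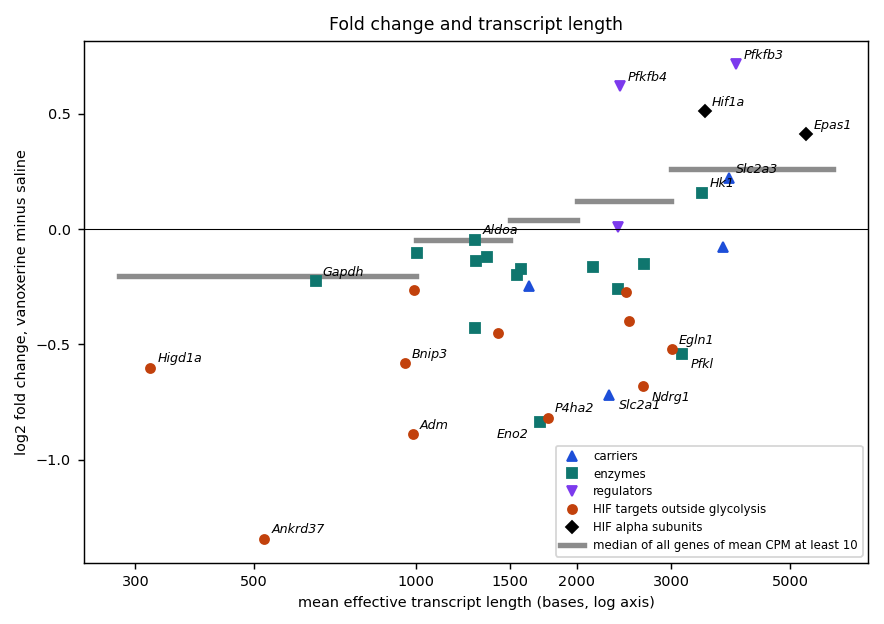
Log2 fold change of 34 of the genes (y axis, vanoxerine minus saline) against mean effective transcript length (x axis, bases, log axis), with the median of all genes of mean CPM at least 10 in 5 length bins as grey bars, of which the first and last are cut short at their open ends. The grey bars climb from -0.20 to 0.26 with length, all HIF targets outside glycolysis lie below the bar of their length, and Pfkfb3, Pfkfb4 and Hif1a lie above it.

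Macrophage markers rose beside these changes, where 21.0% of all genes tested were higher and 15.9% lower. All 12 markers were higher, with a median log2 fold change of 2.50, and their summed level was 5073 and 5028 TPM in vanoxerine tumours, against 844 and 859 TPM in saline tumours. Hk3, Pfkfb3, Hif1a and Slc2a3 are well expressed in myeloid cells, and the part of these cells in their rise was not tested. Endothelial markers, relevant to Epas1, were lower in 7 of 12 and higher in 2, and summed to 64.1 and 74.9 TPM in vanoxerine tumours and 71.2 and 66.7 TPM in saline tumours. Pecam1 and Eng were the markers that rose, and the other 10 summed to 19.3 and 28.3 TPM in vanoxerine tumours, against 53.2 and 47.2 TPM in saline tumours. Red cell genes, relevant to Bnip3l, which red cell precursors use to clear mitochondria, were lower in 7 of 7 tested and summed to 13760 and 12910 TPM in vanoxerine tumours, against 26510 and 27100 TPM in saline tumours. Neutrophil markers were lower in 6 of 10 and higher in none, with sums of 1676 and 1646 TPM in vanoxerine tumours and 2656 and 2720 TPM in saline tumours. T cell markers were higher in 1 and lower in 3 of 10, skeletal muscle genes higher in 1 and lower in 2 of 8, and epithelial and colon markers higher in 3 of 8 tested. Proliferation genes were lower in 2 of 8 and higher in none. These counts stand beside the same 21.0% higher and 15.9% lower of all genes tested. On log2(TPM + 1), T cell markers were higher in 2 and lower in 1, skeletal muscle genes in 0 and 0, and proliferation genes in 2 and 0. Of all genes tested, 21.8% were higher and 4.64% lower on that scale. None of these lists was tested as a cause of the values of the 35 genes.

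A wider list of 41 other HIF targets held 20 genes that fell, 7 that rose and 14 that were not called, with a median of -0.28. On the log2(TPM + 1) scale 9 fell and 7 rose, beside 4.64% and 21.8% of all genes tested, and the median of the list was -0.02. Ddit4, which restrains mTORC1 under stress, had 154 and 152 CPM in vanoxerine tumours, against 300.1 and 309.7 CPM in saline tumours (log2 fold change -0.996 ± 0.044, adjusted p = 4.92e-05). Falls were also found for the mitochondrial adenylate kinase gene Ak4 (-0.73 ± 0.051, adjusted p = 2.15e-04) and the transcriptional repressor gene Bhlhe40 (-0.57 ± 0.040, adjusted p = 2.26e-04). The inducible nitric oxide synthase gene Nos2, which activated macrophages express, rose by 0.67 ± 0.047 (adjusted p = 2.26e-04). Vegfa, the vessel growth factor gene, was not called, at 173 and 176 CPM in vanoxerine tumours and 173 and 170.2 CPM in saline tumours, nor was the transferrin receptor gene Tfrc. The wider list therefore held genes of both directions, more of them lower, where 15.9% of all genes tested were lower and 21.0% higher.

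Of 13 other genes of the HIF pathway, 3 rose, 3 fell and 7 were not called, where 21.0% of all genes tested were higher and 15.9% lower. The co-activator genes Ep300 (0.65 ± 0.057, adjusted p = 4.98e-04) and Crebbp (0.50 ± 0.090, adjusted p = 0.00777) rose. Neither was called on log2(TPM + 1) (limma adjusted p = 0.0959 for Ep300 and 0.118 for Crebbp). With the transcript length offset in edgeR the adjusted p was 0.139 for Ep300 and 0.105 for Crebbp. Elob (-0.47 ± 0.051, adjusted p = 0.00120) and Eloc (-0.34 ± 0.055, adjusted p = 0.00510), which encode the elongins of the complex that degrades HIF alpha subunits, fell. Eloc differed by -0.08 on log2(TPM + 1) and was not called there (limma adjusted p = 0.38). Rbx1 of the same complex and the HIF antagonist gene Cited2 were not called. Among 13 tested genes of 18 other glycolysis genes, 3 rose and 3 fell, beside the same 21.0% and 15.9% of all genes tested. Besides Hk3, the smallest p-values were those of Bpgm, the red cell bisphosphoglycerate mutase gene (-0.68 ± 0.055, adjusted p = 3.61e-04), Ldhb (-1.03 ± 0.16, adjusted p = 0.00390) and the muscle enolase gene Eno3 (-0.40 ± 0.085, adjusted p = 0.0141). For Ldhb the base mean in the authors' deposited table is 3.36 times the mean reads found here, so its value rests on part of its reads. Eno3 differed by -0.015 on log2(TPM + 1) and was not called there (limma adjusted p = 0.968). Minpp1 and Tigar were not called. Pkm, the pyruvate kinase gene of the last step, was added after its values were seen, and had 2650.0 and 2633 CPM in vanoxerine tumours and 2365 and 2459 CPM in saline tumours (0.13 ± 0.034, adjusted p = 0.0270), so it did not share the falls of the enzymes before it on this scaling. With upper-quartile factors Pkm stood at -0.003. Without vanoxerine replicate 1 the adjusted p was 0.205 for Pkm and 0.197 for Eno3, and without vanoxerine replicate 2 it was 0.194 for Pkm, 0.0908 for Eno3, 0.0871 for Crebbp and 0.109 for Eloc.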

How the data were processed

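RNA was measured in 4 whole-tumour libraries. Per the labels' protocols, snap-frozen tumours were disrupted, and the TruSeq RNA v2 kit made libraries for a NextSeq sequencer. The submitters' processing notes name fastp, Salmon 1.3.0, DESeq2 and the GRCm38 build. The sources used here give no read length, annotation release or strand setting. The authors deposited, per the file headers, Salmon's estimated counts (not normalized) and TPM (scaled to length and library total) for 140992 transcripts. The authors' deposited table also gives a base mean (a signal averaged after their normalization), a log2 fold change with its error, and p-values. Its 4 FPKM columns matched no sample and were not used.

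Counts and TPM were summed per gene with GENCODE M21 (139791 transcripts had a gene there, 619 of them matched without version number), and counts were rounded. Salmon divides reads shared by similar transcripts by estimate. R 4.3.3 and edgeR 4.0.16 gave the fit, scaled by TMM, without a block, after filterByExpr (at least 10 reads in enough libraries, 15 in total). CPM values use the TMM factors. SE is the log2 fold change divided by the root of the F statistic. The fit was tested on simulated data. The log2(TPM + 1) scale, with a pseudocount of 1, was tested with limma 3.58.1; its differences understate changes of low genes. DESeq2 1.42.0, other scalings and filters, a transcript length offset, a block and leaving out each library were alternatives. Replicates of a group differed by more than sampling noise (mean chi-square per gene 17.3 for vanoxerine and 58.3 for saline). At a depth of 67289273 to 75748162 reads, SE was largest for the lowest genes, Adm (0.20) and Eno2 (0.18). It was 0.13 for Epas1 and 0.10 for Aldoc, and the part of depth in these values was not tested.

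The genes and lists were chosen with earlier results of these data known. Every one of the 35 genes is named. From each other gene list, up to 4 called genes of smallest p and up to 2 genes not called with the highest TPM are named. Marker lists are given as counts and summed TPM. Promoters are from RefSeq. Protein sequences were not used here.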

Additional observations from a re-analysis of the deposited data

How the results depend on the processing

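Calls on read counts were most sensitive to the vanoxerine libraries. Leaving out 1 library at a time gave 3107 to 9708 genes called (6916 with all), 3 to 7 members higher (6 with all), 10 to 25 lower (20 with all), 0 to 2 enzymes higher (1 with all) and 1 to 12 lower (8 with all). HIF targets lower were 8 to 11 of 11 in the same fits. A library left alone in its group was taken to vary as the other group does. With a transcript length offset, 4309 genes were called, with 13 members and 5 enzymes lower. With upper-quartile factors, which put the median of all genes at -0.14, 3 members rose, 0 enzymes rose and 13 enzymes fell. Enzymes higher were 0 with library totals or a mean CPM of at least 1, and 2 with no filter or an adjusted p under 0.1. Enzymes lower were 10 with DESeq2. They were 11 with limma-voom, library totals, a mean CPM of at least 1 or protein-coding genes only. In each of these settings 11 HIF targets were lower, where 6627 to 7020 of all genes were called in either direction. With log2(TPM + 1), 6 members fell, 4 enzymes rose and 0 fell, and 5 HIF targets fell. On that scale the sign turned for Gpi1 (0.16), Pfkm (0.085), Aldoa (0.20), Pgk1 (0.074), Pgam1 (0.052), Eno1 (0.18), Ldha (0.20), Slc16a1 (0.17), Slc16a3 (0.092), Bnip3l (0.12) and Pgm1 (0.064). Each of these lay below 0.275, the median on that scale of all genes of at least 10 CPM on average. Pdk1, at 0.01, turned to -0.125 with upper-quartile factors, -0.037 with library totals, -0.032 with a mean CPM of at least 1, -0.023 with protein-coding genes only and between -0.025 and 0.055 without 1 library, the lowest without saline replicate 1. Vegfa, at 0.03, turned to -0.109, -0.021, -0.016 and -0.007 in the first 4 of these settings, and Pkm, at 0.13, to -0.003 with upper-quartile factors. Centred on genes of like length, Hk1 turned to -0.10 and Slc2a3 to -0.038. The cause of these changes was not tested. In the authors' deposited table, some genes called here had an adjusted p above 0.05. These were Eno1 (0.678), Eno2 (0.189), Adm (0.157), Slc16a3 (0.0938) and Epas1 (0.0562). Pfkp, not called here, had 2.31e-05 there. For the other members the calls at 0.05 were the same. Same-numbered libraries did not deviate together (correlation -0.039 over 9871 genes). With 2 libraries a group, this does not settle whether the numbers pair the samples. With the replicate number as a block, 6391 genes, 6 members higher and 21 lower, 1 enzyme higher and 8 lower, and 11 HIF targets lower were called. Limits are the 2 libraries per group, whole-tumour RNA, the unstated strand setting, the unmeasured Tpi1 and the change of fold with length.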

Other observations

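The pentose phosphate pathway is the branch of glucose use that makes NADPH and ribose. Of its 9 genes, 3 rose, 1 fell and 5 were not called, where 21.0% of all genes tested were higher and 15.9% lower. G6pdx, the gene of its first and rate-setting dehydrogenase, had 128 and 126 CPM in vanoxerine tumours, against 96.8 and 96.9 CPM in saline tumours (log2 fold change 0.39 ± 0.045, adjusted p = 0.00147). Rises were also found for the second dehydrogenase gene Pgd (0.27 ± 0.042, adjusted p = 0.00420) and the transketolase gene Tkt (0.17 ± 0.043, adjusted p = 0.0277). The lactonase gene Pgls between the dehydrogenases fell by 0.38 ± 0.047 (adjusted p = 0.00196). Without vanoxerine replicate 1 the adjusted p was 0.0679 for Pgd, 0.238 for Tkt and 0.061 for Pgls, and without replicate 2 it was 0.0748 for Pgd and 0.224 for Tkt. On log2(TPM + 1), 4 of the 9 were called higher and 0 lower, beside 21.8% and 4.64% of all genes tested. Taldo1 and Rpe, of the non-oxidative steps, were not called. The summed level of the list was 715 and 710.1 TPM in vanoxerine tumours and 578 and 556 TPM in saline tumours.

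Of 18 genes of pyruvate use, 5 rose, 3 fell and 10 were not called, beside the same shares of 21.0% and 15.9%. On log2(TPM + 1), 4 were called higher and 0 lower, beside 21.8% and 4.64% of all genes tested. The malic enzyme gene Me1 had 76.3 and 70.8 CPM in vanoxerine tumours, against 132 and 124 CPM in saline tumours (log2 fold change -0.80 ± 0.062, adjusted p = 2.92e-04). The mitochondrial alanine aminotransferase gene Gpt2 fell by 0.36 ± 0.048 (adjusted p = 0.00232) and the pyruvate carboxylase gene Pcx by 0.55 ± 0.089 (adjusted p = 0.00520). Pdp1, whose phosphatase activates pyruvate dehydrogenase, rose by 0.80 ± 0.13 (adjusted p = 0.00480). Without vanoxerine replicate 1 the adjusted p was 0.0555 for Gpt2 and 0.0768 for Pcx, and without replicate 2 it was 0.063 for Gpt2. The mitochondrial pyruvate carrier genes Mpc1 and Mpc2 were not called.

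Of 10 glycogen genes, 2 rose, 2 fell and 6 were not called, beside 21.0% and 15.9% of all genes tested. On log2(TPM + 1), 4 were called higher and 0 lower, beside 21.8% and 4.64% of all genes tested. Gys1 (limma adjusted p = 0.0884) and Pgm1 (0.064 on that scale) were not called there. The glycogen synthase gene Gys1 had 66.0 and 64.0 CPM in vanoxerine tumours, against 85.9 and 89.7 CPM in saline tumours (log2 fold change -0.43 ± 0.052, adjusted p = 0.00159), and it is also among the 41 other HIF targets. Pygl, the liver-type phosphorylase gene, rose by 0.82 ± 0.14 (adjusted p = 0.00624) and the glycogenin gene Gyg by 0.26 ± 0.056 (adjusted p = 0.0145). Pgm1 fell by 0.19 ± 0.047 (adjusted p = 0.0260), and Ugp2 and Pygb were not called. Without vanoxerine replicate 1 or 2 the adjusted p was 0.156 or 0.14 for Gyg and 0.263 or 0.344 for Pgm1.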
